A study of Mus musculus with 14 samples.

Results

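H3AcK27 regions were compared between FSK-treated and untreated 3T3-L1 adipocytes. The H3AcK27 list with FSK held 38684 regions and the control list held 52321. Together these are 91005 of the 182986 H3AcK27 regions in the 4 treatment lists, and of 243429 peaks and regions in the 12 lists of the study. Members were all regions of both lists, chosen by their library and by no measured value. 3T3-L1 is an established line of mouse preadipocytes that can be made to differentiate into adipocytes, and the cells were used after 4 days of differentiation. Control cells received no treatment. The FSK cells received 10 µM forskolin (FSK), an activator of adenylyl cyclase, for 1 h. Cells given TNFα for 1 h and cells given FSK together with TNFα for 1 h (FSK/TNFα) had an H3AcK27 library each, and these were used only as further readouts. Each treatment had 1 H3AcK27 library, so no difference below has a replicate check and no test was run. Intervals are 95% Wilson intervals over regions or loci and cover counting error only.

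Acetylation of histone H3 at lysine 27 marks active promoters and enhancers, and it is written by the acetyltransferases CBP and p300. In the cAMP pathway, FSK raises cAMP, protein kinase A phosphorylates CREB, and CRTC coactivators enter the nucleus. CREB then recruits CRTC2 and CBP/p300 to cAMP response elements (CREs), whose full form is TGACGTCA and whose core is TGACG. In adipocytes the same pathway also drives lipolysis.

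Sequences are shown for CRTC2-bound sites within regions that were called with FSK and not in control, because they join the acetylated region to the DNA element of the pathway. Of the 175 CRTC2 peaks of the FSK library in such regions, 8 held a full CRE (4.57%, interval 2.33 to 8.76). The share was 2.55% of the peaks in shared regions and 2.43% of all 11749 peaks, and the interval includes both. The 5 shown are in order of their CRTC2 signal. Not shown are 2 peaks over annotated untranslated exons and a peak on a chromosome left out by rule. Each line is the plus strand of a CRTC2 peak, read from the RefSeq genome GRCm38.p6 at the positions that the list gives, and capitals mark the CRE.
chr15:101279646-101279806, between Nr4a1 and Atg101: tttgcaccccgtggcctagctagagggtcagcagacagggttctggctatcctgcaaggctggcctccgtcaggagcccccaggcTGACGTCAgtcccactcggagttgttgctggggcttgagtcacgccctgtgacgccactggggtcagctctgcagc
chr14:25346090-25346250, intergenic and nearest to Zmiz1: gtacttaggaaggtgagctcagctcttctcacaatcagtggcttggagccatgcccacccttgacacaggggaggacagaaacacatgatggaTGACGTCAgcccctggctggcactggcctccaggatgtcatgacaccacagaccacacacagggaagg
chr7:28587066-28587226, in introns of Pak4 and Samd4b: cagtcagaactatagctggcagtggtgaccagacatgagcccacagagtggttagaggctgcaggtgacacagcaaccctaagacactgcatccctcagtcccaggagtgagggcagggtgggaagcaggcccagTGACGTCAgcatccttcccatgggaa
chr13:109536826-109536986, in an intron of Pde4d: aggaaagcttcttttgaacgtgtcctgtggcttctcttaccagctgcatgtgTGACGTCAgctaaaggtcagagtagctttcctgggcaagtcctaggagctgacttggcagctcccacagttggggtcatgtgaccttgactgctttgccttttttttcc
chr15:13384912-13385072, intergenic and nearest to Cdh6: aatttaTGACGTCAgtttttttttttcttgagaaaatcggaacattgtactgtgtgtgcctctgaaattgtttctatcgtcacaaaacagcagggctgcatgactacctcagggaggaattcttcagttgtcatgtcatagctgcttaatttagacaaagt
The site beside Nr4a1 had the highest CRTC2 signal of the 5, with 37.1 normalized tags (tags per 10000000) at rank 447 in the CRTC2 FSK list. Its acetylated region carried 76.3 normalized tags and its midpoint lay 12876 bp downstream of an Nr4a1 start site. This acetylated region was called neither with TNFα nor with FSK/TNFα. The other 4 CRTC2 peaks had between 9.13 and 15.8 normalized tags. The Pde4d site stood in a weak acetylated region of 27.5 normalized tags, with its midpoint at -44844 bp from the nearest Pde4d start site.

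The FSK library was the shallowest of the 4, with 9832884 tags against 27601287 in control, 27966129 with TNFα and 25729060 with FSK/TNFα. The authors called regions with HOMER, which joined enriched 500 bp windows into regions of variable width. The tag number of a region was scaled by the authors to 10000000 tags per library, is not corrected for input, and is given here as normalized tags. A window needed 9 tags with FSK and 14 in control, which is 9.15 and 5.07 normalized tags, so a weak region could be listed in control and missed with FSK. Control and TNFα were called against an input of untreated cells, and FSK and FSK/TNFα against an input of FSK-treated cells. Treatment, depth and input therefore cannot be told apart in the FSK-control comparison. Regions took up 48.6% of the tags with FSK and 50.9% with FSK/TNFα, against 64.9% in control and 66.7% with TNFα. Regions over 30 normalized input tags per kb, mostly on stretches of chromosomes 4 and 10, numbered 74 with FSK and 79 in control, and they are named as high-input regions where they appear.

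Most regions called with FSK were also called in control. Of the FSK regions, 86.6% (95% interval 86.3 to 87) were overlapped by a control region by at least 1 bp, and 58.3% (57.9 to 58.8) of the control regions were overlapped by an FSK region. The regions without a counterpart numbered 5169 with FSK and 21792 in control. Shared bases covered 64.3 Mb, which is 88.2% of the bases under FSK regions and 56.5% of those under control regions. With the control list cut to the 38684 regions of most normalized tags, 82.3% of FSK and 74.2% of control regions were shared. Among the 20000 highest of each list the shares were 87.3% and 82.6%, and among the 10000 highest they were 83.6% and 80.2%. At 10000 regions, control and TNFα shared more, with 88% of control regions, as did FSK and FSK/TNFα, with 88.1% of FSK regions. These closer pairs each had the same input library.

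Absence from the other list went with low rank. None of the 1000 highest FSK regions lacked a control region (0%, upper bound 0.383%), and 3 of the next 4000 did. Between ranks 20001 and 38684, 26.5% of FSK regions had no control region. In the control list, 0.4% of the 1000 highest regions had no FSK region, against 9.3% at ranks 10001 to 20000 and 86.6% from rank 38685 on. The plot of absence by rank shows both curves staying near 0 through rank 10000.

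**Figure D1:**
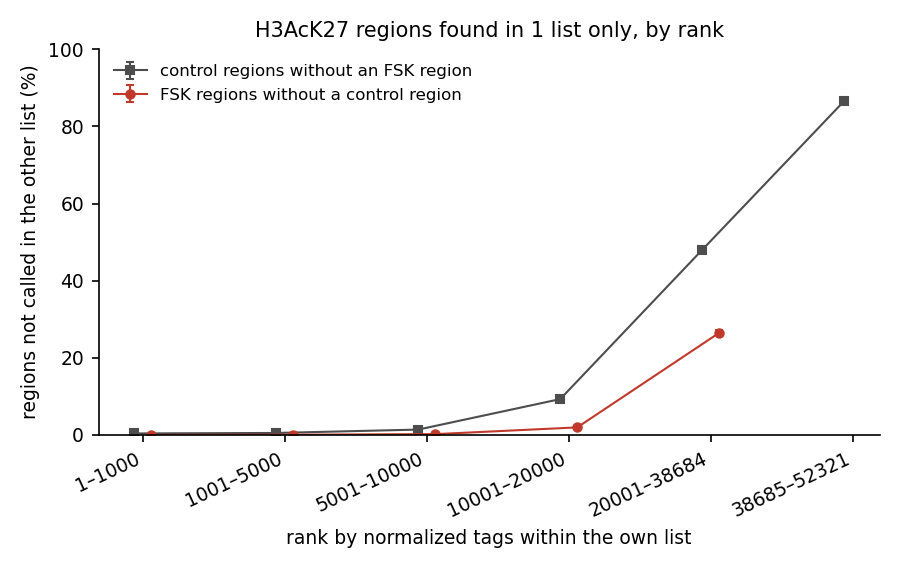
Share of H3AcK27 regions not overlapped by the other list (y axis, %) in bands of rank by normalized tags within the own list (x axis). Squares are control regions, circles are FSK regions, and bars are 95% Wilson intervals, mostly smaller than the symbols. Absence stays at or under 1.4% through rank 10000 in both lists and reaches 26.5% for FSK and 86.6% for control in the lowest band of each.

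FSK regions were narrower. Their median width was 1324 bp (quartiles 633 and 2381) against 1469 bp (680 and 2674) in control, and in lists of 38684 regions it was 1324 bp against 1991 bp. At 26674 loci each list had exactly 1 region, and there the FSK region had a median of 0.772 times the width and 0.793 times the normalized tags of its control partner. Normalized tags per kb differed little at these loci, with a median ratio of 1.06. A control region was broken into 2 or more FSK regions at 2774 loci, while the reverse was seen at 425 loci. Because of this breaking up, gene values below are also given as the sum of normalized tags over a merged locus, meaning all touching regions of both lists. Where a gene's highest promoter regions lay in different loci, which was the case at 119 of 10116 genes, the sum runs over both loci. Pearson's r of log2 normalized tags over the 26674 loci, which share their sequence and mappability, was 0.842.

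Promoter regions, defined as those within 1000 bp upstream to 100 bp downstream of a protein-coding start site, made up 25.1% (24.7 to 25.5) of the FSK list and 20.9% (20.5 to 21.2) of the control list. The order turned in lists of 38684 regions, where the control share was 27.1% (26.6 to 27.5). Among the 20000 highest the shares were 42.1% with FSK and 42% in control. Regions of 1 list only were mostly distal. Of the 211 FSK regions without a control region among the 20000 highest, 5.69% (3.28 to 9.68) were at promoters. The share was 42.5% for the shared FSK regions among the 20000 highest, but these were not matched in rank. At ranks 10001 to 20000, which held 197 of the 211 regions, 31.1% of all FSK regions were at promoters. For the 1025 such control regions the share was 12.2% (10.3 to 14.3). Ranks 10001 to 20000 held 930 of them, and 33.8% of all control regions there were at promoters. Midpoints 10 to 100 kb from the nearest start site were the most frequent position, with 54% of the 211 and 50.9% of the 1025 regions. Of distal regions only, these were 114 of 199 FSK-only and 522 of 900 control-only regions. Among shared distal regions of the 20000 highest, they were 6921 of 11377 with FSK and 6791 of 10697 in control. This distance was therefore not particular to regions of 1 list.

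Distal regions of 1 list only differed in their CRTC2 peaks, a readout that the H3AcK27 lists do not use. Among the 20000 highest, 65 of 199 distal FSK-only regions (32.7%) held a CRTC2 peak of the FSK library, while 33 of 900 distal control-only regions (3.67%) did. Shared distal regions of the FSK list stood between them at 21.9%. With promoters included, the counts were 72 of 211 FSK-only (34.1%, interval 28.1 to 40.8) and 64 of 1025 control-only regions (6.24%, 4.92 to 7.89), while shared FSK regions, of which many are promoters, stood above both at 39.4%. CRTC2 peaks of the control library were rare in either class, at 3.32% of the FSK-only and 2.34% of the control-only regions. They were found in 13.3% of the shared FSK regions. Among distal regions these shares were 2.01% of FSK-only, 0.889% of control-only and 2.75% of shared FSK regions. A low share of listed control peaks does not show that CRTC2 was absent. Per 100 kb of region the FSK CRTC2 list had 19.2 peaks in FSK-only and 2.29 in control-only regions. Over the whole lists, where the 5169 FSK-only regions had a median width of 500 bp and a median of 14.2 normalized tags, the shares were 3.35% and 1.41%. There, distal FSK-only regions (3.05%) were below shared distal FSK regions (11.3%). The FSK lists of CRTC2 and H3AcK27 were called against the same input, and the part of that input in these shares was not tested.

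The same order appeared at loci called in both lists. Distal loci with 1 region in each list and at least 50 normalized tags in either were grouped by the ratio of their tags, FSK over control. Where the ratio was under 1/4, 47 of 1207 loci (3.89%, 2.94 to 5.14) held a CRTC2 peak of the FSK library. The share was 16.4% for ratios of 1/2 to 1, 33.7% for 1 to 2, 45.7% for 2 to 4, and 63 of 132 loci (47.7%, 39.4 to 56.2) for ratios of 4 or more. The intervals of the last 2 groups overlap. The share of loci with a CRTC2 peak of the control library was low in every group. It rose from 1.08% for ratios under 1/4 to 3.49% for 1 to 2, and was 1.33% for 2 to 4 and 0% for 4 or more. At promoter loci the FSK CRTC2 share was 12.4% for ratios under 1/4 and 68.1% for 1 to 2, and there the control CRTC2 share was also higher in the second group, at 4.96% and 27.8%. The median width of the distal groups lay between 2262 and 2824 bp, with the narrowest loci in the group of the highest ratio.

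**Figure D2:**
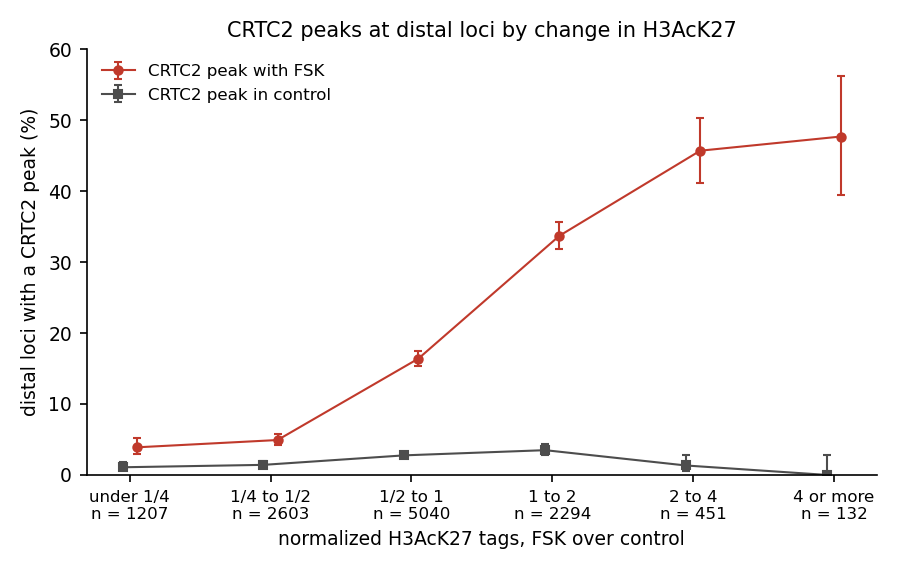
Share of distal H3AcK27 loci that hold a CRTC2 peak (y axis, %) by the ratio of normalized H3AcK27 tags, FSK over control (x axis, with the number of loci). Circles are CRTC2 peaks of the FSK library and squares those of the control library, with 95% Wilson intervals. The FSK CRTC2 share goes from 3.89% to 47.7% across the groups, and the control CRTC2 share stays at or under 3.49%.

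CRE letters were counted in 500 bp around each region's midpoint, with TGACG searched on both strands and including the matches within TGACGTCA. A full CRE was present in 3 of the 211 high FSK-only regions (1.42%, 0.485 to 4.1), in 1.19% of all 20000 highest FSK regions, and in 0 of the 1025 high control-only regions (upper bound 0.373%). TGACG was present in 23.7% (18.5 to 29.9) of the FSK-only regions, 14.9% (12.9 to 17.2) of the control-only regions, and 24.6% of all 20000 highest FSK regions. Over the whole lists TGACG was found in 13.9% of FSK-only and 12.8% of control-only regions, both below the 20.2% of shared FSK regions, and a full CRE in 0.464% of FSK-only against 0.853% of shared regions. Among distal regions of the 20000 highest the shares of TGACG were 22.1% (16.9 to 28.4), 13.3% (11.3 to 15.7), and 17.3%. FSK-only regions with a CRTC2 peak held TGACG in 37.5% of cases (27 of 72), and those without in 16.5% (23 of 139). Within the CRTC2 peaks themselves, TGACG was found in 33.1% of the 175 peaks in FSK-only regions, 24% of those in shared regions, and 16.8% of the 310 peaks in control-only regions.

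The other H3AcK27 libraries gave a further readout of the high regions of 1 list. Of the 211 FSK-only regions, 164 (77.7%) were called with FSK/TNFα and 141 (66.8%) with TNFα alone. Of the 1025 control-only regions, 985 (96.1%) were called with TNFα but 609 (59.4%) with FSK/TNFα. Over the whole lists, 40.9% of FSK-only regions were called with FSK/TNFα and 30% with TNFα, and of control-only regions 25.2% and 56.8%. Thus 387 control-only regions (37.8%) were listed in both libraries without FSK and missing from both libraries with FSK, and 598 (58.3%) were missing from the FSK list alone. Only 47 FSK-only regions (22.3%) were listed in both libraries with FSK and missing from both without it, whereas 117 (55.5%) were missing from the control list alone. The FSK/TNFα library was nearly as deep as control, and it was called against the same input as FSK.

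The strongest distal regions of either class stood in high-input stretches. In the FSK-only class, 4 of the 5 distal regions of most normalized tags were high-input regions, 3 near Otogl on chromosome 10 with 380 to 584 normalized tags and 1 near Tnfsf15 on chromosome 4 with 233. They had 4.26- to 4.4-fold enrichment over an input of 109 to 198 tags per kb, and none was called with FSK/TNFα. The fifth was chr15:8805313-8807461, at -95623 bp from the start site of Slc1a3, which encodes a glutamate transporter. It carried 224 normalized tags over an input of 13.5 tags per kb, held a CRTC2 peak of the FSK library, and was called with TNFα and with FSK/TNFα. In the control-only class, the regions near Rap1b, Gm10306, Ptprq and Fggy had 952 to 1463 normalized tags and were also high-input regions. The fifth was chr5:64387002-64392342, whose midpoint lay 159273 bp downstream of a start site of Tbc1d1, which encodes a Rab GTPase-activating protein of glucose transport. It carried 635 normalized tags at 13.4-fold over input, was called with TNFα, was not called with FSK/TNFα, and had no CRTC2 peak.

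Outside high-input stretches, the following regions were chosen after their values were seen. FSK-only regions lay 15559 bp downstream of Ptgs2, the gene of cyclooxygenase 2, with 134 normalized tags, and 102758 bp downstream of Rgs2 with 111. Both held a CRTC2 peak of the FSK library and both were called with TNFα and with FSK/TNFα. FSK-only regions flanked Eif4h with 191 and 138 normalized tags, and a region near Pi15 with 141 normalized tags was called with FSK/TNFα but not with TNFα. By number of high regions nearest to a gene, Zeb2 led the control-only class with 6 regions, followed outside high-input stretches by Zfp36l2, Klf3, Pdgfc, Csmd1, Klf6 and others with 4 each. No gene had more than 3 FSK-only regions, and the gene with 3 was Otogl.

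Loci called in both lists but with very different tags were mostly distal, and the 10 with the highest and the 10 with the lowest ratio, of loci with 1 region per list and outside high-input stretches, were picked after their values were seen. The ratio was highest near Mgl2, where the control region had 5.07 and the FSK region 101 normalized tags, 19.9-fold more. Near Ramp3, which encodes a receptor activity-modifying protein, the values were 8.33 and 165 normalized tags. Near Rorb they were 17.8 and 228, and near Zfp36l1, a gene of an RNA-binding protein, 23.5 and 345. Of the 10 loci with the highest ratio, 6 held a CRTC2 peak of the FSK library and none held 1 of the control library. Among the 10 with the lowest ratio, 3 held a CRTC2 peak of the FSK library and none of the control library. The control regions of the 10 highest were 500 to 1358 bp wide and the FSK regions 1997 to 7298 bp, and the ratios compare regions called separately. At the other end, the FSK region was only 500 bp wide, over a broad control region, at 9 of 10 loci, such as near Mamdc2 (331 and 12.2 normalized tags) and Cers6 (260 and 11.2).

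Genes of the cAMP response mostly had more H3AcK27 tags with FSK. Of the 21 genes listed, 20 had a promoter region in both lists, and Atf3 had none in either. Over the merged loci, 17 of the 20 had more normalized tags with FSK, with a median log2 ratio of 0.311 against -0.206 over all 10116 genes ranked in both lists, of which 30.3% had more. A ratio of 2-fold or more was reached at Crem, Rgs2 and Nr4a2, where 1.3% of all genes reached it. Nr4a1 had 5.65 times the control tags, but from regions at different start sites, so its value is no ratio within a locus. In rank, 2 of the 20 genes were higher by 20 percentile points or more, Nr4a1 and Pde4b, and none was lower by as much. Over all genes ranked in both lists, 3.06% were higher and 2.55% lower by that margin. The rank percentile is the place of a gene's highest promoter region in lists of 38684 regions, with 100 for the most tags. In control, 9 of the 20 genes were already above percentile 90, which leaves little room for a higher rank.

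Nr4a1 encodes an orphan nuclear receptor of the immediate early response. Its FSK region at chr15:101265918-101269869 covered the downstream start site at position 101266846 with 137 normalized tags, and this region had no control counterpart. The control region counted for the gene lay at the upstream start site, chr15:101253962-101254855, with 24.3 normalized tags, so the percentiles of 17.3 and 74.5 compare different start sites. The gene's highest promoter region had 32.5 normalized tags with TNFα and 143 with FSK/TNFα, so both libraries with FSK were above both without it. A CRTC2 peak of 104 normalized tags with FSK lay in the stretch from the control region to the FSK region, and none was listed there in control. In all, 3 high FSK-only regions lay within 50 kb of an Nr4a1 start site, with 137, 76.3 and 46.8 normalized tags. The first and last were called with TNFα and with FSK/TNFα, and the region of 76.3 normalized tags with neither.

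Nr4a2, the gene of a related receptor, had 242 normalized tags in control, 768 with FSK, 236 with TNFα and 406 with FSK/TNFα. Its FSK region spanned 9299 bp against 3144 bp in control. Nr4a3 had 214, 350, 236 and 346 normalized tags in the same order of libraries. For all 3 receptors the values with FSK and FSK/TNFα were above those in control and with TNFα. How many of all genes had this order was not counted.

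Crem, which encodes an activator and repressors of cAMP-driven transcription, had 276 normalized tags in control, 737 with FSK, 296 with TNFα and 670 with FSK/TNFα. Rgs2, a regulator of G protein signalling, had 237, 692, 91.9 and 335. Pde4b and Pde4d encode phosphodiesterases that break down cAMP. Pde4b had 130, 248, 182 and 339 normalized tags, with both FSK libraries above the others. Pde4d had 136, 202, 120 and 118, so that only FSK alone stood above control.

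Of the other members, some had more and some fewer tags with FSK. Btg2, an antiproliferative gene, had 89.5 normalized tags in control and 126 with FSK, at a percentile higher by 17.2 points. Among subunits of AP-1, the values were 152 and 170 for Fos, 108 and 144 for Fosb, and 1904 and 2693 for Junb. For Junb the merged locus differed by 1.07-fold only. Ppargc1a, a coactivator of oxidative metabolism, had 516 and 663 normalized tags, and Irs2, an adaptor of the insulin receptor, 586 and 702. Dusp1 (2559 and 2724) and Cebpb (1843 and 2079) differed by 1.06- and 1.13-fold. Per1, a clock gene, had 2076 and 2391 normalized tags, and its merged locus differed by 1.32-fold. Sik1, a kinase that holds CRTCs in the cytoplasm, had 3181 normalized tags in 1 control region and 2188 in its highest FSK region, while the merged locus had 3253 with FSK. Gem, Bhlhe40 and Klf9 had fewer tags with FSK, at 0.923, 0.753 and 0.638 times control over the merged locus. CRTC2 peaks of the FSK library lay at the promoter regions of 17 of the 20 genes (85%) and those of the control library at 9 (45%). Over all 10166 genes with a promoter region in both lists these shares were 63% and 27.7%, but other lists were as high, with housekeeping genes at 100% and 62.5% and cytokine genes at 90.9% and 54.5%.

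**Figure D3:**
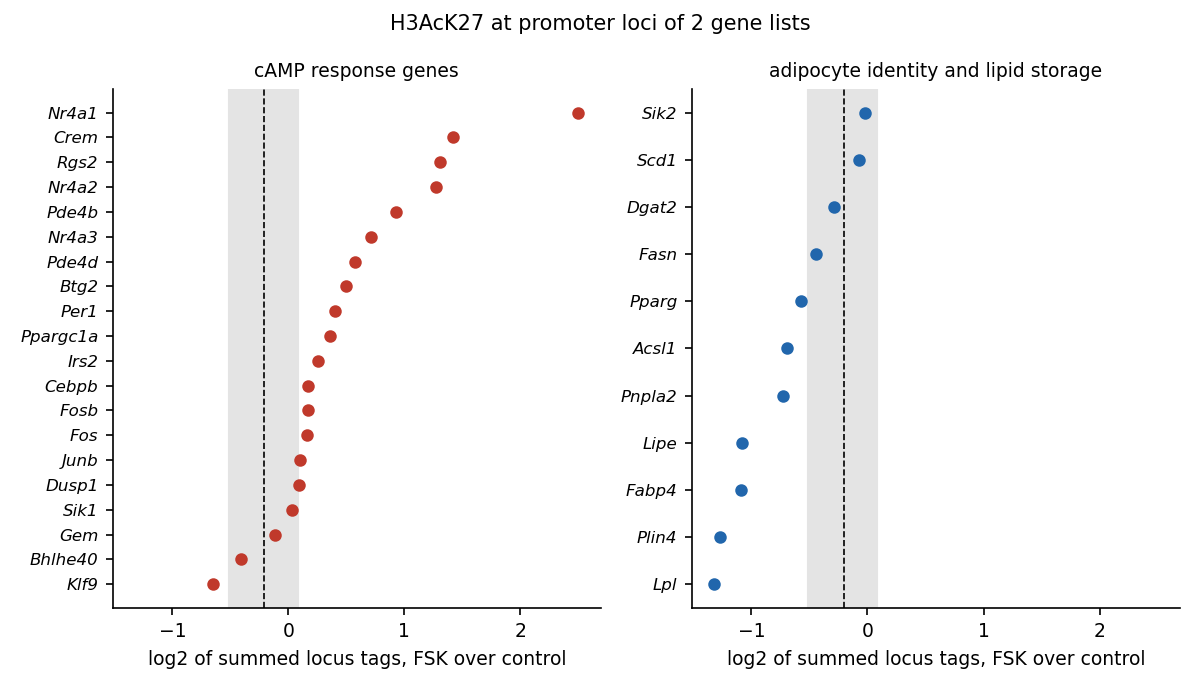
Log2 ratio of summed normalized H3AcK27 tags, FSK over control (x axis), at the merged promoter loci of cAMP response genes (left) and of adipocyte identity and lipid storage genes (right), 1 point per gene. The dashed line is the median over 10116 genes (-0.206) and the grey band their quartiles (-0.511 to 0.081). The Nr4a1 value compares regions at different start sites. Of the 20 cAMP response genes 17 lie above 0, and all 11 genes on the right lie below 0.

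Genes of adipocyte identity and lipid storage had fewer tags with FSK. A promoter region in both lists was found for 11 of 20 genes. All 11 had fewer normalized tags over the merged locus with FSK, with a median log2 ratio of -0.696 against -0.206 over all genes, and 4 had no more than 0.5 times the control tags (Lpl, Plin4, Fabp4 and Lipe). Over all genes, 69.1% had fewer tags and 6.82% no more than 0.5 times. In rank, 3 of the 11 were lower by 20 points or more (Pparg, Lipe and Fabp4), against 2.55% of all genes, and none was higher by as much. At these 3 genes the single control region faced more than 1 FSK region, and over the merged loci the ratios were 0.672, 0.474 and 0.47. CRTC2 peaks of the FSK library lay at 9 of the 11 promoters (81.8%), so promoters with fewer H3AcK27 tags also held CRTC2.

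Lipe encodes hormone-sensitive lipase, which protein kinase A activates. Its highest promoter region had 593 normalized tags in control, 95.6 with FSK, 409 with TNFα and 70.3 with FSK/TNFα. Summed over the merged locus, the control and FSK values were 593 and 281. Pparg encodes the nuclear receptor that drives adipocyte differentiation. A region of 5179 bp over its start site at chromosome 6 position 115422066 had 191 normalized tags in control, and the highest FSK region at this promoter spanned 651 bp with 24.4. With TNFα the value was 100 and with FSK/TNFα 31.1, and the summed FSK locus had 128 normalized tags, 0.672 times control. A control-only region of 140 normalized tags, chr6:115389024-115391495, lay 6560 bp from another Pparg start site and was called with TNFα but not with FSK/TNFα.

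Fabp4, the gene of the adipocyte fatty acid binding protein, had 188, 59, 162 and 62.2 normalized tags in control, FSK, TNFα and FSK/TNFα. Plin4, a lipid droplet protein gene, had 438, 167, 276 and 150. Lpl, the lipoprotein lipase gene, had 359, 143, 226 and 131. In each of these genes both libraries with FSK were below both without it. The share of all genes with this order was not counted. Over the merged loci, 69.1% of all genes ranked in both lists had fewer tags with FSK than in control. Pnpla2, the gene of the first lipase of lipolysis, had 271 and 164 normalized tags in control and with FSK, and Acsl1, an acyl-CoA synthetase gene, 249 and 154. Fasn (626 and 460), Dgat2 (125 and 103) and Scd1 (210 and 200), which serve lipid synthesis, differed less, at 0.734, 0.819 and 0.953 times control over the merged locus. Sik2, a kinase of CRTCs, had 152 and 199 normalized tags in its highest region, but 237 and 233 over the merged locus.

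**Figure D4:**
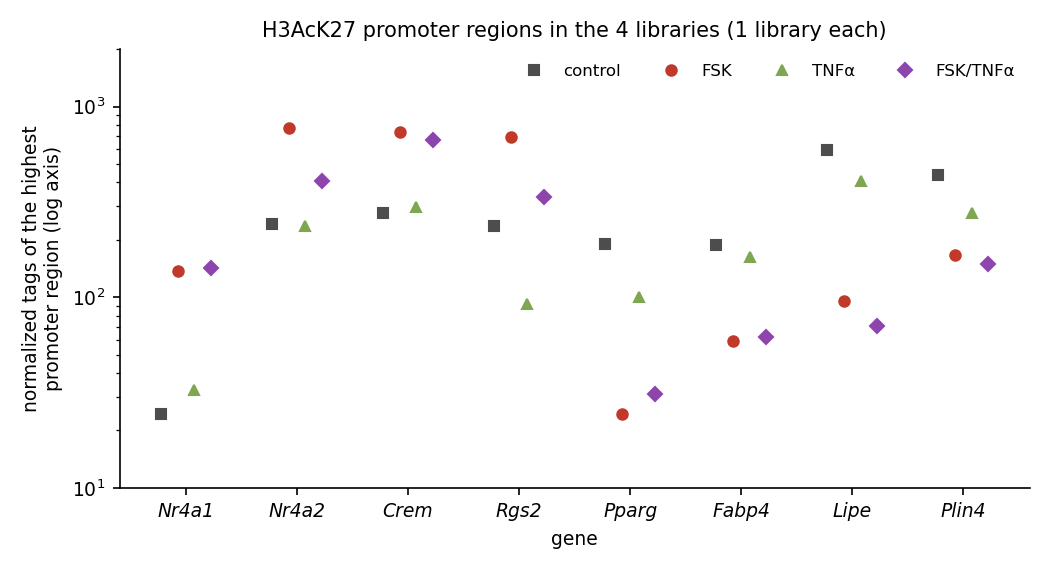
Normalized H3AcK27 tags of the highest promoter region (y axis, log scale) of 8 genes (x axis) in the control, FSK, TNFα and FSK/TNFα libraries, 1 library each. FSK and FSK/TNFα lie above control and TNFα for Nr4a1, Nr4a2, Crem and Rgs2, and below them for Pparg, Fabp4, Lipe and Plin4. The 8 genes are a selection, and Pde4d of the cAMP response genes, not plotted, does not have this order. The Nr4a1 values in control and with FSK are from different start sites. Over the merged loci, control and FSK differ less for Pparg, Fabp4, Lipe and Plin4.

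**Figure D5:**
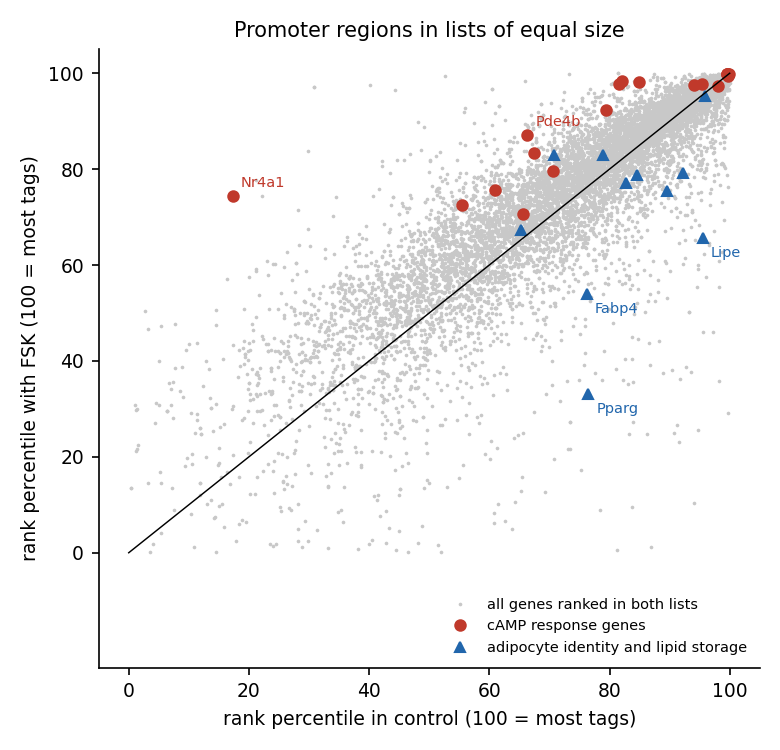
Rank percentile of the highest promoter region of each gene in control (x axis) and with FSK (y axis), in lists of 38684 regions. Grey points are all 10116 genes ranked in both lists, circles are cAMP response genes and triangles adipocyte identity and lipid storage genes, with names at 20 points or more from the line of equal rank. Nr4a1 and Pde4b lie above the line, and Lipe, Fabp4 and Pparg below it.

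The other 9 adipocyte genes had no promoter region in any of the 4 lists, among them Adipoq, Cebpa, Plin1 and Lep. Of all protein-coding genes, 47.9% had a promoter region neither with FSK nor in control. The nearest region lay 8796 bp from the Adipoq start site in control and 9177 bp with FSK, and for Cebpa these distances were 7630 and 26209 bp. The label of adipocytes comes from the authors. In these lists 11 of 20 adipocyte genes were covered, near the share over all protein-coding genes, so coverage gives the label no support. All 9 thermogenic genes, Ucp1 and Cidea included, were without a promoter region in the 4 lists. Preadipocyte and matrix genes were covered in 10 of 10 cases, 9 in both lists and Dlk1 in control only with 21 normalized tags, where 5.14% of all protein-coding genes were in control only. Col1a1 had 805 normalized tags in control and 311 with FSK, and Col1a2 had 1104 and 450. Both encode chains of type I collagen, and their merged loci had 0.556 and 0.636 times the control tags. Timp1, a metalloproteinase inhibitor gene, was the only gene of this list with more tags with FSK (368 and 611). Of the 9, Thy1 alone was lower by 20 points or more. Of 14 marker genes of other cell types, 11 had no promoter region with FSK or in control, including Ptprc, Pecam1 and Alb. Cd68, a macrophage marker, had 13.2 normalized tags with FSK, no promoter region in control, 428 tags with TNFα and 13.2 with FSK/TNFα, and of all genes 0.421% were listed with FSK and not in control. Cdh5 and Myog had 9.06 and 36.6 normalized tags in control and no promoter region with FSK. Their part in the differences was not tested.

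Cytokine and NF-κB genes differed in both directions. Of 15 genes, 11 had a promoter region in both lists, and 6 of these had more and 5 fewer tags with FSK over the merged locus. Over all genes ranked in both lists, 30.3% had more. The median log2 ratio of the 11 genes was 0.212, against -0.206 over all genes and 0.311 for the cAMP response genes. None of the 11 differed by 20 points in rank. Il6, the interleukin 6 gene, had 552 normalized tags in control, 1042 with FSK, 823 with TNFα and 939 with FSK/TNFα. Lif, a cytokine of the same family, had 423, 750, 997 and 1110. The neutrophil chemokine genes Cxcl1 and Cxcl5 had 343 and 437, and 1836 and 2544, in control and with FSK. Ccl2, the gene of a monocyte chemokine, had 1124 and 798, and it was highest with TNFα at 1723. The NF-κB inhibitor genes Nfkbia and Tnfaip3 had 0.763 and 0.692 times the control tags.

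Cxcl2 had no promoter region in any list, but FSK-only regions flanked it. The region chr5:90899862-90901364, with its midpoint at -3258 bp from a start site, had 66.1 normalized tags and a CRTC2 peak of the FSK library. The region chr5:90906746-90908887, with its midpoint 3943 bp downstream, had 92.5 normalized tags and no CRTC2 peak. Both regions overlapped regions with TNFα and with FSK/TNFα. In control the nearest region was 10023 bp from the start site. Housekeeping genes were covered in both lists in 8 of 8 cases, none differed by 20 points, and their median log2 ratio was -0.126.

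The largest differences in percentile were named by a rule on both tags and tags per kb. Srrd and Hps4, which share a promoter and are counted separately, had 39.5 normalized tags in control, 598 with FSK, 76.9 with TNFα and 465 with FSK/TNFα. The region at chr5:112340528-112345500 held a CRTC2 peak of the FSK library. Pmvk, the gene of phosphomevalonate kinase, had 62 and 535 normalized tags, and its merged locus was 5.98-fold higher with FSK. Besides Nr4a1, the others were BC030867, Hist2h3c2, Klk9, 1700015G11Rik, Gtpbp1 and Olfr432, whose merged loci differed by 1.25- to 3.41-fold. Except for Hist2h3c2, which had 29.9 normalized tags with FSK/TNFα, each of the 10 genes had more tags in FSK/TNFα than in control. For Olfr432 TNFα alone was higher still, with 258 normalized tags against 207 with FSK/TNFα and 42.7 with FSK. The share of all genes with more tags in FSK/TNFα than in control was not counted.

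At the 10 genes with the lowest percentile difference, the highest FSK region was 500 to 888 bp wide and the highest control region was broad. For Synpo2l, Sema3f and Pak1 these regions lay in different loci. Their percentiles and highest-region tags therefore compare different sites, and their summed values run over both loci. Igf2, the insulin-like growth factor 2 gene, had 206 normalized tags over 8277 bp in control, 12.2 with FSK, 184 with TNFα and 15.2 with FSK/TNFα, and no other FSK region lay in its locus. Synpo2l had 306, 9.15, 214 and 14.4 normalized tags, and its summed locus had 0.16 times the control tags. For Ms4a4d, Tspan32, Slit2, Efemp1, Ms4a6c, Sema3f, Nav2 and Pak1 the summed locus had between 0.387 and 0.758 times the control tags. For Efemp1 the highest promoter region had 2182 normalized tags in control and 20.3 with FSK, while the summed locus had 2182 and 1110.

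Few promoters were listed with FSK only. Of 21853 protein-coding genes, 10166 had a promoter region in both lists, 92 with FSK only (0.421%) and 1124 in control only (5.14%). At 5 of the 10 FSK-only genes of highest tags, a control region touched the FSK region but stopped short of the promoter window. The region at 4930415O20Rik had 962 normalized tags with FSK, 29.7 with TNFα and 1028 with FSK/TNFα, and its merged locus had 559 in control. Tas2r126, 1600014C23Rik and Mrap had 2.18- to 3.38-fold more tags over the merged locus with FSK. Mrap encodes the accessory protein of melanocortin receptors, and its values were 85.4 normalized tags with FSK and 89.8 with FSK/TNFα, with no promoter region in control or with TNFα. For Dpyd the merged locus was equal (136 and 135). Rpap3, Otud6b, Top2a, Ern1 and Ankrd55 had no control tags in the locus and 72.2 to 104 with FSK, and each was called with TNFα. Their promoter regions were also high in FSK/TNFα, at 71.5 to 121 normalized tags.

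At all 10 control-only promoters of highest tags, FSK regions lay elsewhere in the same locus. Il34, a cytokine gene, lay under a control region of 33114 bp with 2239 normalized tags, and its merged locus had 1322 with FSK. Over the merged locus, the tags with FSK were 0.814 times control for Rhof, 1.12 times for Fstl1, 0.778 times for Tnp2, 0.873 times for Adgrg2 and 1.01 times for Ifitm5. Larger differences were seen for E030018B13Rik (1055 and 236 normalized tags), Rapgef1 (1030 and 347), 1700034E13Rik (911 and 240) and Cep295nl (1560 and 759). Rapgef1 encodes a guanine nucleotide exchange factor, and its promoter region was called with TNFα at 679 and with FSK/TNFα at 579 normalized tags.

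Where whole promoter regions were without a counterpart, the values were lower. Among the 20000 highest of each list, 12 FSK-only and 125 control-only regions were at promoters. The FSK-only group was led by Nr4a1 (137 normalized tags) and Rpap3 (104), and all 12 were called with FSK/TNFα and all but Dclk1 also with TNFα. It also held Top2a, the gene of a topoisomerase of dividing cells, and Ern1, a sensor of unfolded proteins in the endoplasmic reticulum. The control-only group held Klf13, a zinc finger factor gene, with 226 normalized tags, and Rapgef3, which encodes the cAMP-binding exchange factor EPAC1, with 155. Klf13 was called with TNFα and with FSK/TNFα, whereas Rapgef3 was called with TNFα only. These promoter examples other than those of the 10 highest genes were chosen after their values were seen.

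Distal regions of 1 list only also stood near genes of the cAMP list. A control-only region 18854 bp downstream of Dusp1, chr17:26487529-26491707, had 325 normalized tags and held a CRTC2 peak of the FSK library, and it was called with TNFα and with FSK/TNFα. For Rgs2 a further FSK-only region of 67.1 normalized tags lay 41448 bp downstream and was called in the same libraries. An FSK-only region of 35.6 normalized tags and 1633 bp had its midpoint at -1227 bp from a Crem start site. It reached into the promoter window, so it was not distal, and it was called in no other library. Atf3, which had no promoter region, had its nearest region 3375 bp away with 314 normalized tags in control and 3678 bp away with 362 with FSK. Within 50 kb of the start sites of the 21 genes, 4 high FSK-only and 1 high control-only region were counted, and 3 of the 4 were at Nr4a1. By genes, 2 of the 21 (9.52%) had a high FSK-only and 1 (4.76%) a high control-only region, against 1.2% and 5.84% of all protein-coding genes. For the 20 adipocyte genes these numbers were 0 and 1. Of the 15 cytokine and NF-κB genes, 3 (20%) had a high FSK-only region, a larger share than in the cAMP list. A high control-only region lay near 1 of the 15 (6.67%). Among these 3 genes, Cxcl1 and Cxcl2 share their FSK-only regions.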

How the data were processed

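The authors immunoprecipitated chromatin from 3T3-L1 adipocytes with an antibody to H3AcK27 and deposited a list of regions per library. Their processing notes name STAR, HOMER and mm10. The deposited signal is the HOMER tag number of a region scaled to 10000000 tags, and the deposited fold is the ratio of these tags to the input, kept at 4-fold or more and a Poisson p of 1e-04. CRTC2 lists of the control and FSK libraries were made by the authors with the factor setting. Coordinates were read as GRCm38 (mm10) with GENCODE M21 protein-coding start sites.

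Regions were shared when they overlapped by 1 bp. Merged loci are sets of touching regions of both lists. Input levels per kb were tags per kb divided by fold. With 1 library per treatment no test was possible, and a gene was counted as different at 20 percentile points. The genes named were the cAMP response genes, genes the paper names, examples of 6 further lists, the 10 largest percentile differences in each direction that tags per kb shared, the 10 highest promoter genes of each list alone and the 5 strongest distal regions of each list alone. Further adipocyte and cytokine genes of these lists were named after their values were seen. The genes, lists and tests were chosen with earlier results of these data known. Overlap and merging code was tested on simulated regions. Python 3.11.15, numpy 2.4.6, pandas 2.3.3 and matplotlib 3.10.9 were used. Lists of p65, and of CRTC2 with TNFα, were not used here.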

Additional observations from a re-analysis of the deposited data

How the results depend on the processing

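The FSK library had 9832884 tags, so weak regions missing with FSK are not shown to be absent. No paired analysis was possible because each treatment had 1 library. The 2 alternatives on high-input regions and on the FSK calling threshold were chosen after seeing the data. Requiring overlap of 50% of the shorter region gave 83.5% of FSK and 56.3% of control regions shared, and 8-fold enrichment over input in both lists gave 64.5% and 39.5%. Keeping only the 44223 control regions at or above the FSK threshold of 9.15 normalized tags gave 84.8% and 67.2%. In lists of equal size, the 20000 highest regions gave 87.3% of FSK and 82.6% of control regions shared, the 10000 highest 83.6% and 80.2%, and ranking by tags per kb 81.3% and 73.3%. The ratio of median widths, FSK over control, went from 0.901 to 0.796 at 8-fold over input and to 0.665 in lists of equal size. Promoter shares were 29.9% with FSK and 24.9% in control within 2500 bp, and 38.1% and 40.3% at 8-fold over input. The control share was 27.1% in the list of equal size. Genes with a promoter region in 1 list only numbered 142 for FSK in lists of equal size, and 441 for FSK and 3679 for control at 8-fold over input. Ranked by tags per kb, 493 genes were higher and 404 lower by 20 points with FSK, and 434 were higher and 103 lower when tags were summed over merged loci, against 310 and 258 by the highest region. Among the 20000 highest, FSK-only regions were called with FSK/TNFα in 77.7%, with TNFα in 66.8%, and held an FSK CRTC2 peak in 34.1%. For control-only regions these shares were 59.4%, 96.1% and 6.24%. In the whole lists they were 40.9%, 30% and 3.35% for FSK-only and 25.2%, 56.8% and 1.41% for control-only regions. There, overlap of 50% gave 37.2%, 23.2% and 2.86% for FSK-only regions and 21.3% and 54.8% for the first pair in control-only regions, and distal control-only regions gave 24.2%, 55.8% and 0.933%. The cause of these moves was not tested. The other 19 of 58 alternative values stayed within the interval of the main value, or within 1.5 times for counts.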
